A study of Mus musculus with 2 samples.

Results

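Aminoacyl-tRNA synthetases join each amino acid to its transfer RNA, and the charged transfer RNAs feed protein synthesis. Mammalian cells keep a cytosolic set of these enzymes and, encoded by other nuclear genes, a mitochondrial set that serves the ribosomes inside the organelle. Part of the cytosolic set is held in a large multi-synthetase complex by the scaffold proteins encoded by Aimp1, Aimp2 and Eef1e1, and Gars and Kars each encode both a cytosolic and a mitochondrial enzyme. Many cytosolic synthetase genes are known targets of ATF4, the transcription factor of the amino acid response.

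The 39 genes described here were taken by symbol from the 23183 genes of the deposited tables, and all 39 were found. They comprise 23 cytosolic members, which are 20 enzyme genes and the 3 scaffold genes, and 16 mitochondrial enzyme genes, which are those whose symbol ends in 2 other than Aimp2. All 39 had at least 1 FPKM on average over the libraries, and genes that reach this level are called expressed below. FPKM is the number of fragments per kilobase of transcript and per 1 M mapped fragments, so levels of different genes can be compared.

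KPR- is an immortalized mouse cell line from a lung cancer of KPR L/F mice that had received no tamoxifen. The animals carried the Tomato and FlpERT2 transgenes together with Runx3 flox/FSF, p53 flox/flox and K-Ras LSL-G12D/+, and adenoviral Cre given through the nose switched on K-Ras and removed p53 and the floxed Runx3 allele. In KPR_restored cells, 4-hydroxytamoxifen (4-OHT) activated FlpERT2, which cuts the stop cassette out of the remaining Runx3 allele. The labels give RUNX3 -/- at 0 h for the KPR- library and RUNX3 -/+ at 16 h for the KPR_restored library, and they list 1 μM 4-OHT for both. The study's text instead describes KPR- as the line before 4-OHT, and whether the KPR- library received it could not be settled from these sources. p53 is deleted in both, FlpERT2 is the R26 FlpoER allele, and the number of cell clones is not given in the sources used here. Each condition is 1 library, so no difference was set against the spread between cultures, and Runx3 restoration and hours in culture, as well as 4-OHT if KPR- cells received none, cannot be told apart.

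The deposited FPKM summed to 521340 in KPR- and 523647 in KPR_restored, and the steps of low values gave about 21.9 M and 22.6 M fragments. Runx3, on chromosome 4 of GRCm38, had 0.348 FPKM in KPR- and 0.349 FPKM in KPR_restored, from about 28 and 29 fragments. This value per gene does not separate restored from other transcripts and so does not check the labels, and every direction below is that of the library labelled KPR_restored. Of the markers examined, 5 of 5 epithelial genes were expressed (summed FPKM 4881 and 4625), whereas the 5 alveolar type 2 genes, Sftpc, Sftpb, Sftpa1, Napsa and Nkx2-1, were all under 0.1 FPKM. Of 5 mesenchymal genes 3 were expressed (summed FPKM 2032 and 1707), with 1777 and 1464 FPKM for Vim, 242 and 239 FPKM for Fn1 and 12.2 and 4.21 FPKM for Col1a1. The 3 immune genes summed to 3.08 and 6.79 FPKM, nearly all from Cd68 (3.08 and 6.78 FPKM), while Cd3e was listed at 0 in both libraries and Ptprc at 0 in KPR- and 0.00892 FPKM in KPR_restored. The 3 endothelial genes summed to 1.16 and 2.22 FPKM, mostly from Kdr (1.10 and 2.05 FPKM), with 0.0601 and 0.0292 FPKM for Pecam1 and 0 and 0.141 FPKM for Cdh5. The part of other cell types in the differences below was not tested.

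Differences are log2(FPKM + 0.005) in KPR_restored minus KPR-, and a gene was called higher or lower at 0.5 either way, a fold of about 1.41. Of the 20 cytosolic enzyme genes, 12 were called higher and 0 lower. The background was 12.1% higher and 9.29% lower among the 11231 expressed genes, and 8.78% higher and 6.79% lower among the 1709 genes within the range of mean FPKM of the cytosolic enzymes. Of the 16 mitochondrial enzyme genes, 0 were higher and 1 was lower, beside 11.4% and 8.45% of the 10395 genes in their own range of mean FPKM. The 3 scaffold genes stayed under the threshold. In libraries of whole cultures, fewer cells with a transcript and less of it per cell cannot be told apart. The median difference was 0.64 over the 23 cytosolic members and -0.25 over the 16 mitochondrial members, beside 0.0086 over all 11231 genes. The quartiles of those genes were -0.23 and 0.27.

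**Figure D1:**
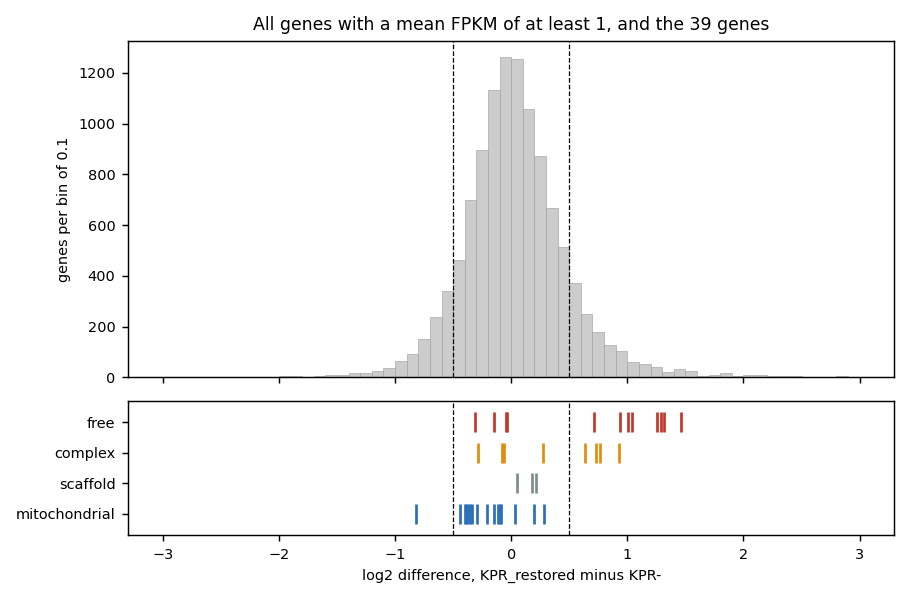
The grey bars count the 11231 expressed genes by their log2 difference in bins of 0.1 (31 genes beyond 3 either way are not drawn), and each tick below is 1 of the 39 genes, with dashed lines at 0.5 either way. The free and complex cytosolic enzymes fall into a block at the right of the dashed line and a block around 0, whereas 15 of the 16 mitochondrial ticks lie between the lines.

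The asparagine, cysteine, serine and alanine enzymes led the cytosolic set. Nars, which charges asparagine, had 95.1 FPKM in KPR- and 262 FPKM in KPR_restored, a 2.76-fold higher level with a log2 difference of 1.46 and a 95% counting interval of 1.42 to 1.51. Cars, the cysteine enzyme (chr7:143557230-143600090, minus strand), had 55.8 and 139 FPKM, a log2 difference of 1.31. Sars, the serine enzyme (chr3:108424865-108445209, minus strand), had 65.7 and 161 FPKM, a log2 difference of 1.29. These intervals come from estimated fragments, cover counting error only and do not describe the spread between cultures.

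The alanine enzyme gene Aars (chr8:111033144-111057664, plus strand) had 78.9 FPKM in KPR- and 189 FPKM in KPR_restored, a log2 difference of 1.26. Its annotation shares 1326 exonic bases on the same strand with Exosc6, a subunit gene of the RNA exosome, so the split of fragments between these genes is uncertain. Exosc6 itself went the other way, with 42.5 and 33.8 FPKM. Gars, the glycine enzyme (chr6:55038007-55079500, plus strand), had 129 and 267 FPKM, and Tars, the threonine enzyme, had 95.9 and 192 FPKM. With Nars, Cars, Sars and Aars they make up the 6 genes with a log2 difference of at least 1, which 2.89% of the 11231 genes had. All 6 are enzymes outside the multi-synthetase complex.

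Lower in the order came the other 6 called genes. Yars, the tyrosine enzyme, had 30.1 FPKM in KPR- and 57.8 FPKM in KPR_restored, a log2 difference of 0.94. Wars, the tryptophan enzyme and a gene also known to respond to interferon, had 32.6 and 53.5 FPKM, a log2 difference of 0.72. These were the lowest cytosolic levels in KPR-, and Wars stayed among the lower ones in KPR_restored. The remaining 4 genes encode enzymes of the complex. Lars, for leucine, had 49.0 and 93.2 FPKM, a log2 difference of 0.93. Mars, for methionine, had 63.8 and 108 FPKM, a log2 difference of 0.76. Rars, for arginine, had 99.8 and 166 FPKM, a log2 difference of 0.73. Iars, for isoleucine, had 59.8 and 93.1 FPKM, and its log2 difference of 0.64 was the smallest of the 12. The 12 genes lay between percentile 92.2 (Iars) and percentile 98.9 (Nars) of the differences of the 11231 genes. All 12 counting intervals were above 0, as were 34.3% of those of the 11137 expressed genes with an interval. At these levels both follow from the call itself and add nothing to it. Mars overlaps Ddit3, the gene of the stress factor CHOP, by 68 exonic bases on the opposite strand. Ddit3 had 12.3 and 52.8 FPKM, the strand setting used for the values is not given in the sources used here, and the part of Ddit3 fragments in the Mars value was not tested.

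A gap of 0.36 on the log2 scale, the widest in the ordered cytosolic enzymes, separated Iars from the next gene, Eprs. Eprs encodes the joint enzyme for glutamate and proline and had 86.6 FPKM in KPR- and 105 FPKM in KPR_restored, a log2 difference of 0.27 with an interval of 0.23 to 0.32. The other 7 genes had a lower value in KPR_restored than in KPR-. Farsb and Farsa, the subunits of the phenylalanine enzyme, had differences of -0.03 and -0.15, and Hars, Qars and Dars, for histidine, glutamine and aspartate, had -0.04, -0.06 and -0.08. The intervals of Farsb, Hars, Qars and Dars included 0. Vars, for valine, had the highest cytosolic level in KPR-, at 142 FPKM, and 114 FPKM in KPR_restored. Kars, for lysine, had 126 and 103 FPKM. Their differences of -0.31 and -0.29 were the lowest of the cytosolic set, and their intervals were below 0.

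**Figure D2:**
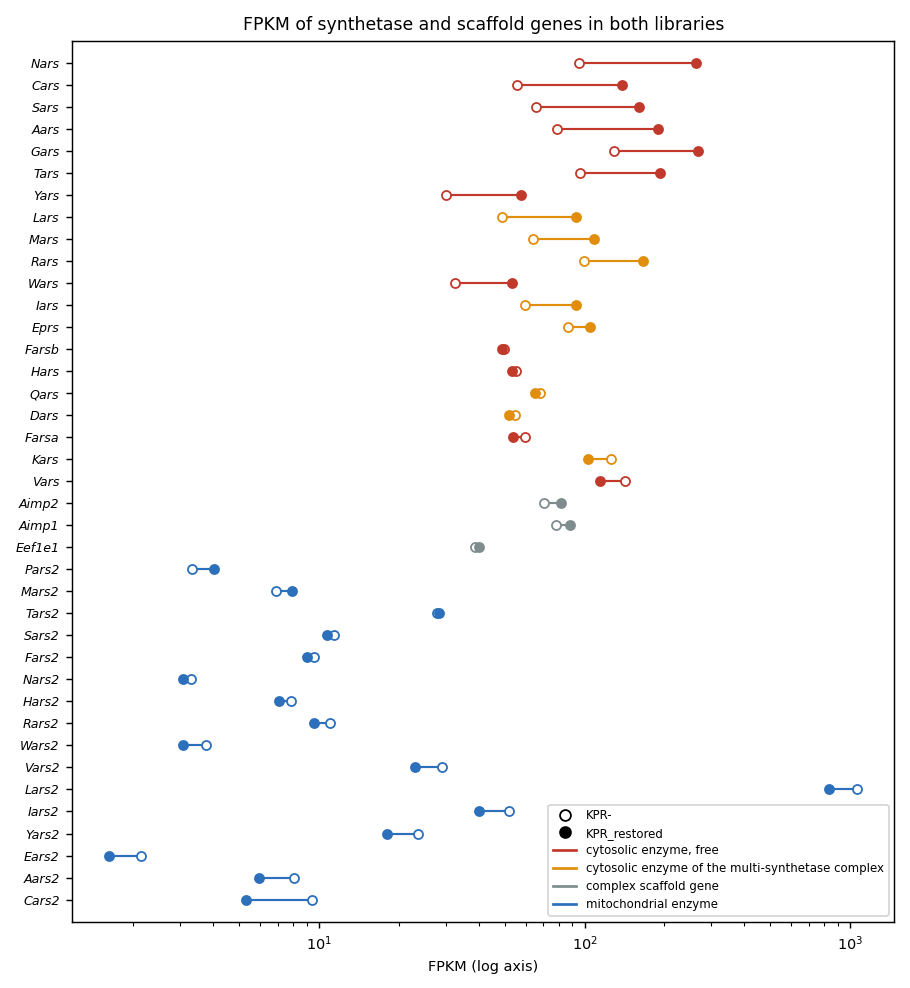
FPKM (log axis) of each gene in KPR- (open circles) and KPR_restored (filled circles), coloured by group and ordered within each group by the log2 difference. The 12 cytosolic enzymes at the top have long lines to the right, Vars and Kars have lines to the left, and Lars2 stands apart from the other mitochondrial enzymes at 1061 and 829.6 FPKM.

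In KPR- the 12 higher genes and the other 8 had close median levels. The 12 and the 8 were divided by their differences, so their parting in KPR_restored follows from that division. The median of the 12 was 64.8 FPKM in KPR-, beside 63.8 FPKM over the 8, and 149.6 against 59.6 FPKM in KPR_restored. Summed over each group, the 12 genes went from 856 to 1781 FPKM and the 8 genes from 642 to 595 FPKM. The order of levels changed with them. Vars, Gars and Kars were highest in KPR-, and Gars, Nars and Tars were highest in KPR_restored. Together the 23 cytosolic members took 0.323% of all FPKM in KPR- and 0.494% in KPR_restored.

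Within the cytosolic set, 4 of the 8 enzymes of the complex and 8 of the 12 free enzymes were higher. The median difference was 0.46 in the complex, with a range of -0.29 to 0.93, and 0.97 among the free enzymes, with a range of -0.31 to 1.46. These ranges overlap. The synthetases also fall into a pair of unrelated structural classes, I and II, by the fold of the catalytic domain. Of the cytosolic class I enzymes 7 of 9 were higher, and of class II 5 of 10, with medians of 0.73 and 0.49 (Eprs, which has a part of each class, left out). The scaffold genes had differences of 0.21 or less. Aimp2 had 70.2 and 81.3 FPKM (log2 difference 0.21), Aimp1 77.9 and 88.3 FPKM (0.18) and Eef1e1 38.8 and 40.1 FPKM (0.05). The intervals of Aimp1 and Aimp2 were above 0 and that of Eef1e1 included 0.

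**Figure D3:**
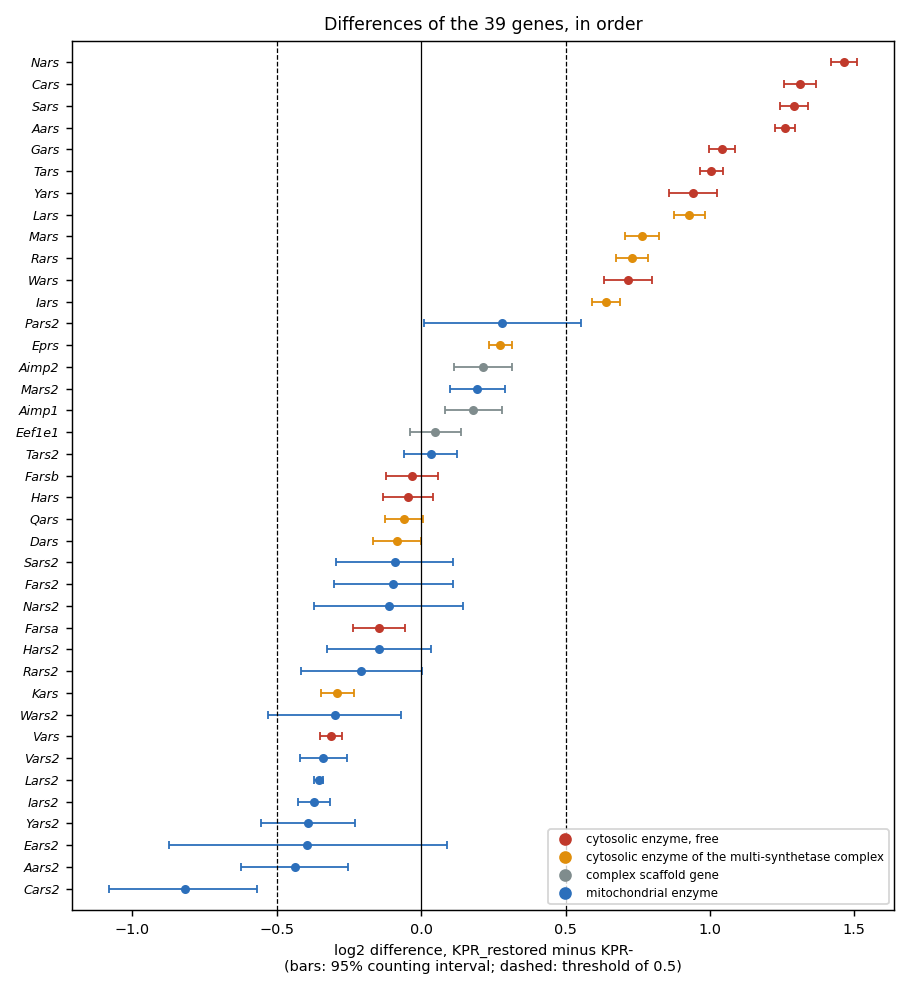
Log2 difference of each of the 39 genes, in order, with its 95% counting interval as a bar and the threshold of 0.5 either way as dashed lines. The 12 genes to the right of the dashed line are all cytosolic enzymes and are separated from the rest, and Cars2 is the only gene to the left of the lower line.

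The mitochondrial enzymes lay at lower levels and lower differences. Without Lars2, their FPKM ran from 2.14 (Ears2) to 51.9 (Iars2) in KPR- and from 1.63 to 40.1 in KPR_restored, whereas every cytosolic enzyme was above 30 FPKM in both libraries. Cars2, the mitochondrial cysteine enzyme, had 9.41 FPKM in KPR- and 5.34 FPKM in KPR_restored, from about 346 and 202 fragments. Its difference of -0.82, with an interval of -1.08 to -0.57, was the one past the threshold, and 9.29% of expressed genes were lower by 0.5 or more. Cars2 shares 422 exonic bases with Naxd on the opposite strand. Naxd was not found under that symbol among the deposited genes, and the part of its fragments in the Cars2 value was not tested. Aars2, for alanine, had 8.08 and 5.97 FPKM (-0.44), Yars2, for tyrosine, 23.7 and 18.0 FPKM (-0.39), and Iars2, for isoleucine, 51.9 and 40.1 FPKM (-0.37). Iars2 shares 2034 exonic bases with Rab3gap2 on the opposite strand, and that gene had 8.72 and 9.64 FPKM.

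In all, 13 of the 16 mitochondrial genes had a lower value in KPR_restored, beside a median difference of 0.0086 over all expressed genes. The intervals of 7 (Aars2, Cars2, Iars2, Lars2, Vars2, Wars2 and Yars2) were below 0, where 33.0% of expressed genes with an interval were. Vars2, for valine, had 29.0 and 22.9 FPKM (-0.34), and Wars2, for tryptophan, 3.77 and 3.07 FPKM (-0.30). The serine, phenylalanine, asparagine, histidine and arginine enzymes (Sars2, Fars2, Nars2, Hars2 and Rars2) had differences from -0.21 to -0.09 and intervals that included 0. The 3 genes with a higher value were Pars2 for proline, with 3.32 and 4.03 FPKM (0.28), Mars2 for methionine, with 6.91 and 7.91 FPKM (0.19), and Tars2 for threonine, with 27.7 and 28.4 FPKM (0.03). The sign of Tars2 turned when the libraries were scaled to the same upper quartile, and its interval included 0. For Ears2, the glutamate enzyme, about 85 and 67 fragments gave a difference of -0.39 with an interval of -0.87 to 0.09, so a change of that size was not detectable at this depth.

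Lars2, the mitochondrial leucine enzyme (chr9:123366927-123462666, plus strand), had 1061 FPKM in KPR- and 829.6 FPKM in KPR_restored. That is 20.5 and 20.7 times the level of Iars2, the next mitochondrial gene, and 83.5% and 82.4% of the mitochondrial sum. The cause of this level was not tested. With Lars2, the summed mitochondrial FPKM went from 1270.5 to 1006, a log2 ratio of -0.34. Without it, the sum went from 209 to 177, a log2 ratio of -0.24. The cytosolic sum went from 1685 to 2586 FPKM, a log2 ratio of 0.62.

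Cytosolic and mitochondrial enzymes of the same amino acid were then set side by side. There are 17 such pairs, with Eprs set against both Ears2 and Pars2 and Farsa and Farsb both against Fars2, so the pairs are not independent. The cytosolic difference was the larger one in 15 of 17 pairs, with a median gap of 0.97 on the log2 scale and a range of -0.05 to 2.13. The 12 called cytosolic genes had differences of at least 0.64, and the highest mitochondrial one was 0.28. In the pairs of those called genes the direction would hold with any partner, so the count largely restates the call. Cysteine had the widest gap, with 1.31 for Cars and -0.82 for Cars2. Alanine followed, with 1.26 for Aars and -0.44 for Aars2, and asparagine, with 1.46 for Nars and -0.11 for Nars2. The pairs for valine, histidine and phenylalanine and that of Eprs with Pars2 differed by 0.10 or less. Hars and Hars2 share 195 exonic bases on opposite strands, and the part of each in the value of the other was not tested. For valine both enzymes had a lower value in KPR_restored, with differences of -0.31 for Vars and -0.34 for Vars2. In level, the cytosolic gene exceeded its partner in 16 of 17 pairs in both libraries, the exception being leucine, and the median ratio was 6.19 in KPR- and 13.7 in KPR_restored.

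**Figure D4:**
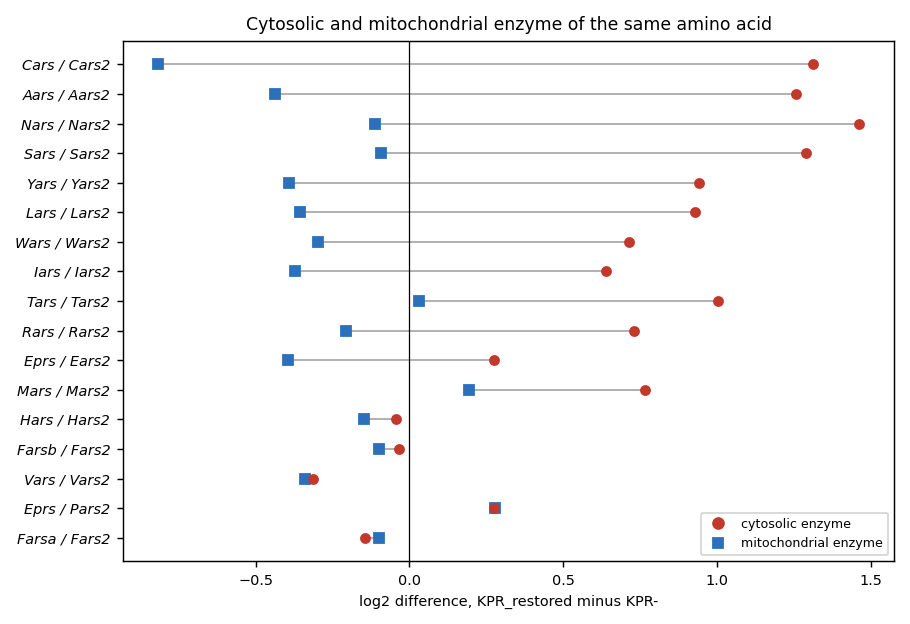
Log2 difference of the cytosolic enzyme (circles) and the mitochondrial enzyme (squares) of each amino acid pair, ordered by the gap between them. The gap is widest for Cars and Cars2, at 2.13, and near 0 for the 5 pairs at the bottom.

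The promoters of the members were searched for the C/EBP-ATF response element, the site that ATF4 binds with C/EBP family partners. Promoters were those of RefSeq on GRCm38.p6, from 250 bases before to 50 after the start of transcription, and 30 of the 39 members had one (not Cars, Hars, Lars, Nars, Rars, Vars, Wars, Hars2 and Pars2). The element was searched as TGATGNAA on both strands and in the stricter form TGATGCAA, which is contained in the first. Of the 7 higher cytosolic enzyme genes with a promoter, 5 held TGATGNAA (Aars, Gars, Iars, Tars and Yars) and 4 of these held TGATGCAA (not Gars). Sars and Mars held neither. Of the 6 other cytosolic enzyme genes, the 3 scaffold genes and the 14 mitochondrial genes with a promoter, 0 held either form. Counted by gene as for the members, 4.51% of all 27025 genes with a promoter held TGATGNAA and 1.03% held TGATGCAA. Counted by promoter, 3.97% and 0.895% of all 32851 promoters did. A match is a description of letters and not a bound site.

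The 5 promoters with a match are shown because they belong to genes that were higher together, and those of Aars2 and Kars are shown as a mitochondrial partner and a lysine enzyme gene without a match. Each runs 5′ to 3′ along the gene from 250 bases before the start to 30 bases after it, with matches in capitals. The regions on GRCm38.p6 are chr8:111033592-111033871 (plus strand) for Aars, chr6:55037751-55038030 (plus) for Gars, chr13:49681880-49682159 (plus) for Iars, chr15:11399629-11399908 (minus) for Tars, chr4:129189653-129189932 (plus) for Yars, chr17:45506582-45506861 (plus) for Aars2 and chr8:112011325-112011604 (minus) for Kars.
Aars: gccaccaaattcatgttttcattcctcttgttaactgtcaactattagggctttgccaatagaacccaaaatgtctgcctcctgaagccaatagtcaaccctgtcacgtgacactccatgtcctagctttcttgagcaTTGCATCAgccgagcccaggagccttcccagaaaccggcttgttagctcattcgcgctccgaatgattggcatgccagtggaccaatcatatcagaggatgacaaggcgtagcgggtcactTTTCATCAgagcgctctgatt
Gars: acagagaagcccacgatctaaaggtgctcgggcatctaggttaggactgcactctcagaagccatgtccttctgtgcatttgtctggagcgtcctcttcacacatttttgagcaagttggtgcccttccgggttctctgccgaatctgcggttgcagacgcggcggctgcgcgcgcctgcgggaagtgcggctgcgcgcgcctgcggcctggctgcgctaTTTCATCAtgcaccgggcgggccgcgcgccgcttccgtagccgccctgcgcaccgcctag
Iars: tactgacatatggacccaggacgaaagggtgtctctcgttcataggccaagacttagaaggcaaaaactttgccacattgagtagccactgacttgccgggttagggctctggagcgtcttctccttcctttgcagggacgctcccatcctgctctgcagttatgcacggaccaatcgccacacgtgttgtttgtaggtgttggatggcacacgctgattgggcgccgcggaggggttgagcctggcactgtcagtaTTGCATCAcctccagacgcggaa
Tars: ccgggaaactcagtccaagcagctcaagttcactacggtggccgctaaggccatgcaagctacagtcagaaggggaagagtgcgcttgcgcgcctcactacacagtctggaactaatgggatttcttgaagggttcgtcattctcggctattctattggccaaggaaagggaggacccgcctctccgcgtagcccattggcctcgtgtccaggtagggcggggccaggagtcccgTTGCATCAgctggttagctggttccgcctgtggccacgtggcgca
Yars: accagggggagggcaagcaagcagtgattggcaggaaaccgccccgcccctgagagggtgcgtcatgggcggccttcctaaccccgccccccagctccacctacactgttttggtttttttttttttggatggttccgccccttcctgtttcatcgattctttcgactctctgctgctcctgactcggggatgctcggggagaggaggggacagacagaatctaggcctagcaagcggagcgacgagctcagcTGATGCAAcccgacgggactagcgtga
Aars2: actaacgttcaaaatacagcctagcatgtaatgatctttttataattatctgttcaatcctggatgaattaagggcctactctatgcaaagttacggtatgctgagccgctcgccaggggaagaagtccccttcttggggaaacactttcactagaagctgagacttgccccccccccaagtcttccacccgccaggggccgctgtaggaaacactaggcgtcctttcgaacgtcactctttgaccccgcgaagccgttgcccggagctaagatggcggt
Kars: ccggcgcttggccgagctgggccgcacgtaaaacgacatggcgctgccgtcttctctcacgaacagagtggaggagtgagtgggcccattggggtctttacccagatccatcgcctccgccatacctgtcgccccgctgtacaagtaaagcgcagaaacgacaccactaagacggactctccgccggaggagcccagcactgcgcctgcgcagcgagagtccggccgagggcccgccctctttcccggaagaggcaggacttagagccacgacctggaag

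The matches lay near the RefSeq start of transcription. For Aars this start lies inside the gene as placed by GENCODE, which begins earlier, at base 111033144. Aars held 2 matches, the stricter form at -112 to -105 and a looser one at 10 to 17, counted from 1 at the first transcribed base. The match of Tars lay at -15 to -8 and that of Gars at -30 to -23. In Iars and Yars it lay just inside the transcript, at 8 to 15 and 4 to 11. The match of Yars read along the gene and the others on the opposite strand. GC content ran from 49.0% to 66.0% in cytosolic and from 48.3% to 71.7% in mitochondrial promoters, so the ranges overlapped.

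**Figure D5:**
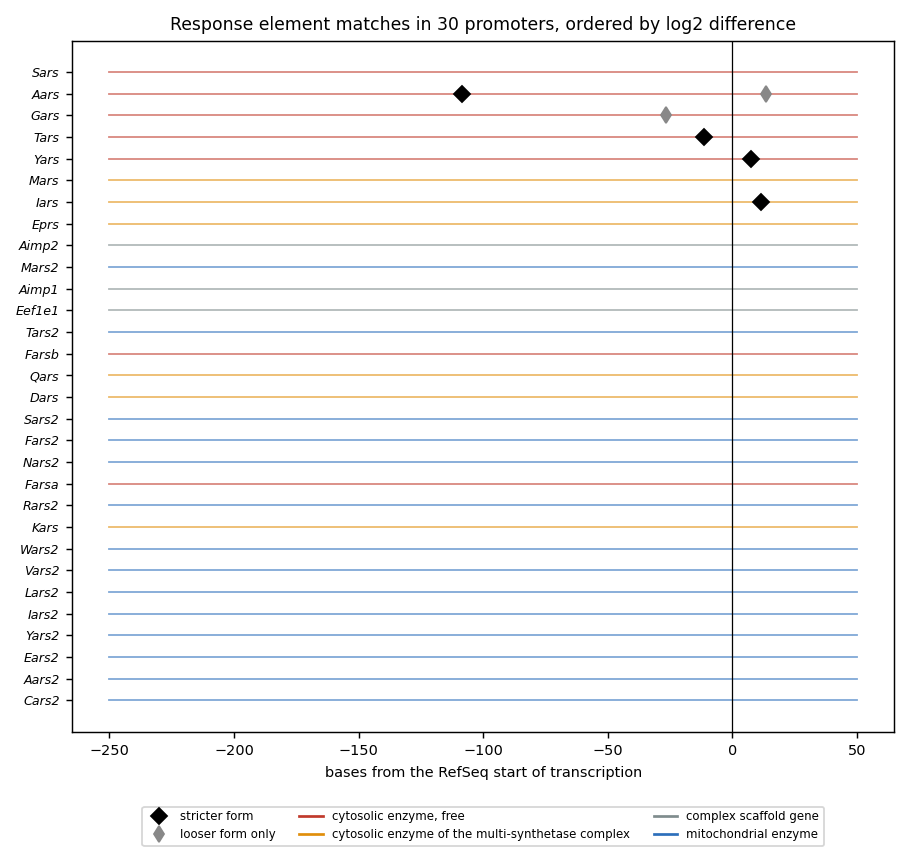
Each line is the promoter of 1 of 30 genes, from 250 bases before to 50 bases after the RefSeq start, ordered by log2 difference from the highest (top) and coloured by group, with black diamonds for TGATGCAA and grey ones for matches to TGATGNAA only. All 6 matches lie in 5 of the 7 lines at the top, and none lies below Iars.

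Other genes that handle transfer RNAs or carry on translation were examined as lists. Of the 6 cytosolic elongation factor genes, 0 passed the threshold in either direction and the median was -0.03. Eef1a1, which brings charged transfer RNA to the ribosome, had 3872 and 4001 FPKM (0.05), and Eif5a had 1032 and 793 FPKM (-0.38). Of the 13 mitochondrial translation genes examined, 0 were higher and 1 was lower, with a median of -0.08. That gene was Gfm1, a mitochondrial elongation factor, with 46.0 and 31.6 FPKM (-0.54), and the highest difference was 0.22 for Mtrf1l, a release factor.

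Among 34 genes of tRNA processing, modification and export, 1 was higher and 1 lower, and the median was 0.0016. Dus2, which makes dihydrouridine in transfer RNA, had 6.61 and 12.5 FPKM (0.92), and Thg1l, which adds a guanosine to histidine transfer RNA, had 3.05 and 1.83 FPKM (-0.73). Of 5 synthetase-like and editing genes, 0 were higher and 3 were lower. These were Dtd1, a deacylase that removes D-amino acids from transfer RNA, with 11.5 and 6.59 FPKM (-0.80), Tarsl2, a second threonine enzyme gene, with 8.16 and 4.86 FPKM (-0.75), and Aarsd1, which edits mischarged alanine transfer RNA, with 23.6 and 15.6 FPKM (-0.59). In these 4 lists, 1 of 58 genes was therefore higher, beside 12 of the 20 cytosolic enzymes and 12.1% of all expressed genes. Lower were 5 of the 58, beside 0 of the 20 cytosolic enzymes and 9.29% of all expressed genes. The 20 were fixed by symbol and leave out Tarsl2, so the 0 does not cover every gene of a threonine enzyme.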

How the data were processed

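RNA from 1 KPR- and 1 KPR_restored library was poly(A)-selected, sequenced as paired ends after a directional kit, trimmed and mapped using TopHat to mm10 (per the submitters' notes). The authors estimated and deposited 1 FPKM value per gene using Cufflinks. The paper also names a geometric normalization of read counts using EdgeR, and it does not say whether the deposited values carry it. If they do, the depths estimated below are scaled ones. Versions and annotation are not given in the sources used here. Transcript lengths and positions were taken from GENCODE M21 (GRCm38, the same build), and 22148 of 23183 symbols matched directly and 667 through a synonym.

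Depth was estimated from the FPKM steps of 3075 genes with 1 transcript of over 1000 bases. Depths of 21.9 M and 22.6 M fragments, at a fragment length of 225 bases on average, placed 79.9% and 81.0% of values from 0.5 to 5.5 fragments within 0.1 of whole numbers, against 20% for evenly spread values. Fragments of a gene used its longest transcript with a RefSeq counterpart and are upper estimates. Behind 1 value stood 1477 to 23588 fragments in cytosolic members and at least 67 in mitochondrial ones. Intervals are exact 95% Clopper-Pearson limits on the ratio of fragments. Both steps were tested on simulated data in which each gene had a known length and counting error only. Genes with several transcripts and overlapping genes were not simulated, so that test does not cover them. With 1 library a group no test was run.

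The members, lists, motif and naming rule (members past the threshold, the largest rises and falls on log2(FPKM + 1) and their partners, and the largest of each list) were chosen with earlier results of these data known. Tarsl2, Aarsd1 and the genes overlapping members were named after the values were seen. A few genes first placed on the lists are not reported here, and protein sequences were not compared. Alternatives were pseudocounts, scalings, filters, a length correction and group membership. Tools were scipy 1.17.1, pandas 2.3.3, numpy 2.4.6 and matplotlib 3.10.9 under Python 3.11.15.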

Additional observations from a re-analysis of the deposited data

How the results depend on the processing

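All 13 genes past the threshold among the 39 stayed past it in the same direction, and 0 others passed it, with pseudocounts of 0.1 and 1, with scaling to the same FPKM total or upper quartile, with centring on the median gene and after a correction for transcript length. With a threshold of 1, 6 cytosolic enzymes were higher and 0 mitochondrial ones lower, and 325 genes in all were higher and 155 lower. Over all genes, no filter on FPKM gave 3193 higher and 3002 lower genes, and a mean FPKM of at least 5 gave 872 and 641, because more or fewer genes were examined. Without the scaffold genes, the cytosolic median was 0.72 and exceeded the mitochondrial one by 0.98 in place of 0.89. Without Lars2, an alternative chosen after seeing the data, the log2 ratio of the mitochondrial sums was -0.24. With the shortest coding transcript in place of the longest, the interval of Pars2 included 0 and the other 38 intervals kept their side of it. No paired analysis was possible because each group has 1 library. Precision rests on counting alone, and mitochondrial genes with few fragments were limited most.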

Other observations

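The response element was also counted in the promoters of expressed genes outside the 39 members, as a description with no test. Of 58 genes with TGATGCAA in a promoter and at least 1 FPKM on average, 23 (39.7%) were called higher and 2 (3.45%) lower, with a median difference of 0.23. Of the 8918 genes without it, 11.5% were higher and 9.03% lower. For the looser TGATGNAA, 24.4% of 225 genes were higher, beside 11.4% of 8751 genes without it. These genes were taken by the element alone, but the element was chosen with earlier results of these data known. Chac1 and Slc7a11, from the list of amino acid response genes below, hold TGATGCAA and are among the 58. All of these genes share the pair of libraries with the members, so the counts are not separate support.

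Of the 10 amino acid response genes listed, a list written with their behaviour in these libraries known, 8 were higher and 0 lower, with a median of 2.10. Among all expressed genes 12.1% were higher and 9.29% lower. Atf4 had 145 FPKM in KPR- and 446 FPKM in KPR_restored, a log2 difference of 1.62. Eif2ak4, which encodes the kinase GCN2 that senses uncharged transfer RNA, had 7.92 and 6.83 FPKM, a difference of -0.21. Of these 10 genes, 4 held TGATGNAA in a promoter (Asns, Chac1, Trib3 and Slc7a11), and the rest, Atf4 among them, did not. Among the 25 tRNA processing genes with a promoter, Pus7 alone held it, and 4.51% of all genes with a promoter did.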
